A study of Drosophila melanogaster with 9 samples.

Results

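The genes described here are grh and 5 genes of cuticle hardening and pigmentation, ple, Ddc, Gld, e and y. All 6 were found under their own symbols in the platform annotation, at 7 of the 13647 probe sets with 1 symbol, which together name 11982 genes. The genes were chosen on expression values of these same arrays. Their differences between rounds are therefore given as a description. Where members past a threshold are counted, the count stands beside that over all probe sets and is not a test of the members. The tumors came from clones in the adult fly gut that were mutant for Apc2 (N175K) and Apc (Q8) and carried the UASRasV12, UASSnail and UASGFP transgenes driven by Esg-Gal4, all of which every sample shared. Metastases from the abdomen of 3 female flies were passed through young adult female hosts of genotype yw, and RNA was taken at rounds T1, T2 and T10, with 3 arrays each. The labels call the 3 arrays of a round technical replicates, so the errors describe how far these samples differ, which may be technical in part. The stocks that gave rise to the clones were also yw, so mutations in y were present in tumor and host stocks alike (the allele is not given in the sources used here), and the arrays measured the y transcript and not its protein.

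Insect cuticle is hardened and colored by catecholamines. Tyrosine is turned into dopa by tyrosine hydroxylase (ple), and dopa into dopamine by dopa decarboxylase (Ddc). Dopamine is then conjugated, to beta-alanine by Ebony (e) or to acetate by acetyltransferases, and the conjugates are oxidized by laccase to quinones that crosslink cuticle proteins. Yellow (y) is needed for black melanin, and glucose dehydrogenase (Gld) is a secreted enzyme with a part in the tanning of the pupal cuticle. Grainyhead (grh) is a transcription factor of surface epithelia that builds and repairs the epidermal barrier, and ple and Ddc are among its known targets at wounds.

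Values are log2 expression after robust multiarray averaging (RMA) by the authors, on which a difference of 1 is a doubling. The lowest value of an array was 2.96 to 3.03 and its median 6.49 to 6.73. Detection calls were not used here, so a value near 3 is given as low and not as absent. T2 replicate 3 was unlike the other T2 arrays, and whether its label is right cannot be told from the deposited values, so every T2 mean, SD and error over 9 arrays rests on that label. Over all probe sets of an array (genes, not replicates) its values correlated at 0.964 to 0.984 with the T10 arrays and at 0.932 and 0.95 with T2 replicates 1 and 2. Main comparisons with T2 are therefore also given without it. Standard errors of the members are from limma's fit on all 9 arrays, T2 included, unless another fit is named. The labelled origin was checked on midgut progenitor markers: esg had values of 9.39 to 11.23 in all 9 arrays, whereas Sox100B was at 8.59 to 9.73 in T1 and T2 replicates 1 and 2 and at 4.33 to 4.74 in T10 and T2 replicate 3. The mean of 9 progenitor markers was 8.22 to 8.71 in T1, 6.79 to 7.79 in T10 and 7.7 in T2 replicate 3. These 9 include sna (log2 difference -1.72 between T10 and T1), which the tumors also carried as the UASSnail transgene. Whether its probe set reads the transgene is not known here, so sna does not mark progenitors on its own. They also include wor, at 3.69 to 4.51 in all arrays. Between T10 and T1, with T2 left out of the limma fit, Delta rose (log2 difference 3.36, adjusted p = 0.00877), Sox100B and spdo fell (-4.56 and -1.84, adjusted p = 0.000761 and 0.0104), and 6 did not pass.

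The transcription factor gene grh was low in the early arrays and clearly higher at T10. Its probe set 1634573_a_at read 3.66, 3.35 and 4.39 in T1 replicates 1, 2 and 3 and 8.14, 9.47 and 7.97 in T10. In T2 it read 3.87, 4.08 and 8.24. No T10 array overlapped T1, and T2 was split, with replicates 1 and 2 at the T1 level and replicate 3 inside the T10 range. The mean was 3.8 ± 0.534 (SD, n = 3) in T1 and 8.53 ± 0.821 (SD, n = 3) in T10, a log2 difference of 4.73 (standard error 1.1), or 26.5-fold. The T1 values lay near the lowest of the arrays, so this fold depends on the background correction, and with values below 4 set to 4 the log2 difference was 4.4. The other probe set, 1635106_at, which has the higher mean over the 9 arrays, had T1 values of 5.09, 4.87 and 5.47 and T10 values of 6.86, 7.87 and 7.26. Its T2 values were 5.08, 5.14 and 7.23. Both probe sets put the arrays into the same 2 ranges, but the second gave a smaller log2 difference of 2.19 (standard error 0.567), or 4.55-fold. Within T10, replicate 2 was the highest at both probe sets. Within T1, replicate 3 was the highest at both, by 0.88 and 0.49 over the mean of the other T1 arrays.

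Gld showed the largest difference per unit of error among the 6 genes. Its T1 values were 3.31, 3.36 and 3.6 and its T10 values 6.77, 6.89 and 7.26. T2 replicates 1 and 2 read 3.31 and 3.26, at the low end of the scale, and T2 replicate 3 read 4.84. This array thus lay between the early and the T10 arrays for Gld, 2.13 below the T10 mean, while for grh it lay within the T10 range. The T10 mean was 6.97 ± 0.255 (SD, n = 3) against 3.42 ± 0.155 (SD, n = 3) in T1, a log2 difference of 3.55 (standard error 0.398), or 11.7-fold. Because the T1 values lay so near the lowest values of the arrays, this fold depends on the background correction, and with values below 4 set to 4 the log2 difference was 2.97.

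The pigmentation gene y was higher in T10, and its lowest array read 5.77. The T1 arrays read 6.03, 7.64 and 6.22, and those of T10 read 9.84, 8.21 and 8.56. T2 read 5.77, 6.54 and 7.28. T10 did not overlap T1 or T2, but T1 replicate 2 came within reach of the lowest T10 array. The mean was 6.63 ± 0.88 (SD, n = 3) in T1 and 8.87 ± 0.858 (SD, n = 3) in T10, a log2 difference of 2.24 (standard error 0.601), or 4.72-fold. Here the highest T10 array was replicate 1, unlike grh (replicate 2) and Gld (replicate 3), so these genes did not order the 3 T10 arrays alike.

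Ddc varied more within rounds than between them. It read 7.87, 5.83 and 6.17 in T1, 5.64, 5.64 and 9.36 in T2 and 7.74, 6.95 and 7.7 in T10. The highest value of all belonged to T2 replicate 3, which was 1.9 above the T10 mean, and T1 replicate 1 was above every T10 array. The log2 difference between T10 and T1 was 0.84, with a standard error of 1.02 in the fit on all 9 arrays and 0.564 with T2 left out. This difference ran from 0.61 to 1.46 when T1 replicates 3 and 1 were left out in turn. It fell to 0.44 without T1 replicate 2. Against T2 it was 0.58 (standard error 1.02), and 1.82 (standard error 0.583) without T2 replicate 3.

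The first and the conjugating enzyme of the pathway showed no difference beyond their spread. Tyrosine hydroxylase transcripts (ple) stayed at the low end of the scale in all 9 arrays, at 3.51, 3.5 and 3.45 in T1, 3.51, 3.48 and 3.49 in T2 and 3.78, 3.57 and 3.5 in T10. Within an array, ple lay at the 1.04 to 3.76 percentile of the probe sets. The log2 difference of ple between T10 and T1 was 0.13 (standard error 0.0938). Ebony transcripts (e) were at 6.63, 7.15 and 6.1 in T1, 6.47, 6.64 and 7.32 in T2 and 7.37, 6.38 and 6.67 in T10, with a log2 difference of 0.18 (standard error 0.362) whose sign changed when T10 replicate 1 was left out (-0.1) or T1 replicate 3 (-0.08). The rounds overlapped at both genes.

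**Figure D1:**
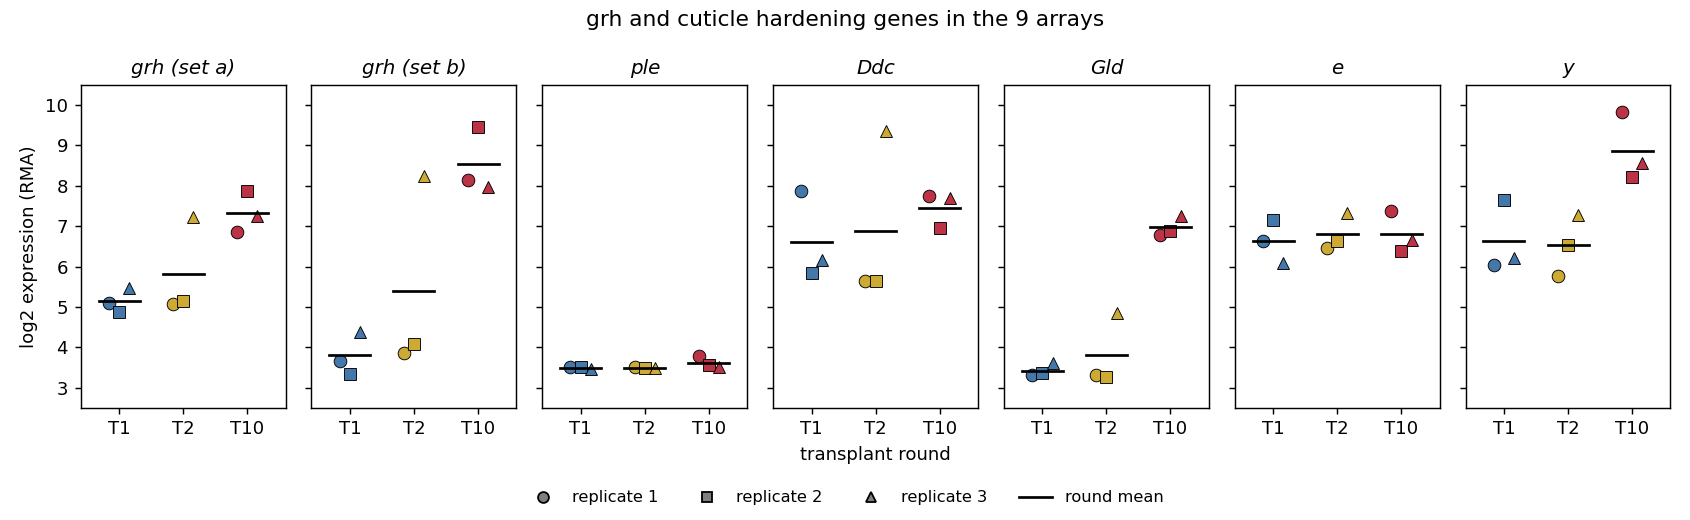
log2 expression (vertical axis) of the 7 probe sets of grh, ple, Ddc, Gld, e and y by transplant round (horizontal axis). Points are single arrays with a shape for each replicate number, and lines are round means. For grh, set a is 1635106_at and set b is 1634573_a_at. T2 replicate 3 (triangle) reads 8.24 at grh set b, within T10, but 4.84 at Gld, below all T10 arrays, while ple stays between 3.45 and 3.78 everywhere.

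Counted over the 6 genes, each by its probe set with the highest mean, T10 lay wholly above T1 at 3 (grh, Gld and y) and below it at none, where 12.9% of all probe sets lay above and 15.1% below. In limma's fit on all 9 arrays no member had an adjusted p below 0.05 for T10 against T1 (0.0107% of all probe sets did). At an unadjusted p under 0.05 there were 3 of 6, against 20.8% of all probe sets. With T2 left out of the fit, grh and Gld were past the threshold as higher, where 2.98% of all probe sets were higher and 2.99% lower. These counts come from the contrast in which the genes were proposed, and nothing is read from them. The first fit takes its error from T2 as well. Among the T2 arrays the SD of grh was 2.46 and 1.22 at its probe sets, against 0.534 and 0.304 in T1.

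Between T10 and T2 none of the 6 passed on all 9 arrays (0% of all probe sets did), with 3 of 6 at an unadjusted p under 0.05, as were 17% of all probe sets. T10 lay wholly above T2 at 2 of 6, where 11.9% of all probe sets lay above and 9.41% below. These were Gld and y, with log2 differences of 3.17 (standard error 0.398) and 2.34 (standard error 0.601). Without T2 replicate 3 the log2 difference of grh at 1634573_a_at changed from 3.13 to 4.55 (standard error 0.489), that of Gld to 3.69 (standard error 0.169) and that of y to 2.71 (standard error 0.635). In that fit grh, Gld and y were past the threshold as higher, where 3.15% of all probe sets were higher and 4.32% lower. T10 is shared by this comparison and the one with T1, so they are not separate evidence. Between T2 and T1 none of the 6 passed (0.00533% of all probe sets did, and 0 of the 6 at an unadjusted p under 0.05, against 6.16% of all). The rounds overlapped at all 6, where T2 lay wholly above T1 at 2.57% of all probe sets and below at 6.86%. Without T2 replicate 3 the log2 differences between T2 and T1 were 0.17 for grh at 1634573_a_at, -0.14 for Gld and -0.47 for y, each smaller than its standard error (0.489, 0.169 and 0.635).

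The other genes of tanning and of the epidermal barrier were taken from 6 lists, of which 43 genes of 58 had a named probe set. In the limma fit on all 9 arrays none of the 43 passed between T10 and T1 (14 at an unadjusted p under 0.05), between T10 and T2 (12) or between T2 and T1 (3). Over all probe sets the unadjusted shares were 20.8%, 17% and 6.16%. With T2 left out of the fit, 6 rose and 3 fell between T10 and T1, and 34 did not pass, where 2.98% of all probe sets rose and 2.99% fell. Without T2 replicate 3, 4 rose and 4 fell between T10 and T2, where 3.15% of all probe sets rose and 4.32% fell. The median log2 difference of all probe sets between T10 and T1 was -0.01. The adjusted p-values below are from this limma fit of T10 and T1 without T2, unless another is named.

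Around dopa and dopamine, genes moved in both directions. The gene amd, a paralog of Ddc that is needed for a normal larval cuticle, rose from T1 values of 8.17, 8.94 and 8.6 to T10 values of 9.95, 10.19 and 10.14 (log2 difference 1.52, standard error 0.209, adjusted p = 0.0176). In T2 it read 5.76, 6.7 and 10.1. T2 replicates 1 and 2 thus lay below all T1 arrays, and T2 replicate 3 at the T10 level. Between T10 and T2 without that replicate the log2 difference of amd was 3.86 (adjusted p = 0.00189 from limma on 8 arrays). The dopamine N-acetyltransferase gene speck (AANAT1) fell by 0.77 on the log2 scale (standard error 0.138, adjusted p = 0.0355), from a mean of 6.46 to 5.69. AANATL2, which encodes a related acetyltransferase, was at 7.61, 7.39 and 7.86 in T1 and at 6.38, 6.32 and 6.83 in T10, and fell by 1.11 on the log2 scale (standard error 0.191, adjusted p = 0.032). Neither passed between T10 and T1 in the fit on 8 arrays without T2 replicate 3 (adjusted p = 0.0721 and 0.0566 from limma), though both did between T10 and T2 in that fit (adjusted p = 0.0169 and 0.00954). All T10 arrays lay below all T1 arrays at both genes. The transcripts of t, whose product Tan reverses the Ebony reaction, were at 3.28 to 3.5 in T1 and T2 replicates 1 and 2 and at 3.62 to 4.65 in T10 and T2 replicate 3, and did not pass (log2 difference 0.74, adjusted p = 0.17).

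The laccase gene stw, whose product is the main oxidase of cuticle tanning, rose slightly at its brightest probe set. It read 4.77, 5.03 and 4.81 in T1 and 5.61, 5.85 and 5.38 in T10 (log2 difference 0.74, standard error 0.153, adjusted p = 0.0489), still below the median of each array. The other probe sets of stw did not pass, with log2 differences of 0.65 (standard error 0.201) and 1.12 (standard error 0.513). Of the other multicopper oxidase genes, Mco1, Mco3 and Mco4 had log2 differences of 0.01, -0.01 and -0.7, none past the threshold. Over the 8 measured genes of this list, 2 rose and 2 fell, and the median log2 difference was -0.00333.

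Upstream of ple, the genes of the pterin cofactor did not pass. These are Pu, pr and Dhpr, with log2 differences of -0.2, 0.31 and 0.17 (adjusted p = 0.612, 0.203 and 0.698). Catsup, which encodes a negative regulator of tyrosine hydroxylase, was at -0.24 (adjusted p = 0.271). Signals of pr and Dhpr were high in all 9 arrays, at 9.95 to 10.68, while Pu was at 3.69 to 4.57.

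**Figure D2:**
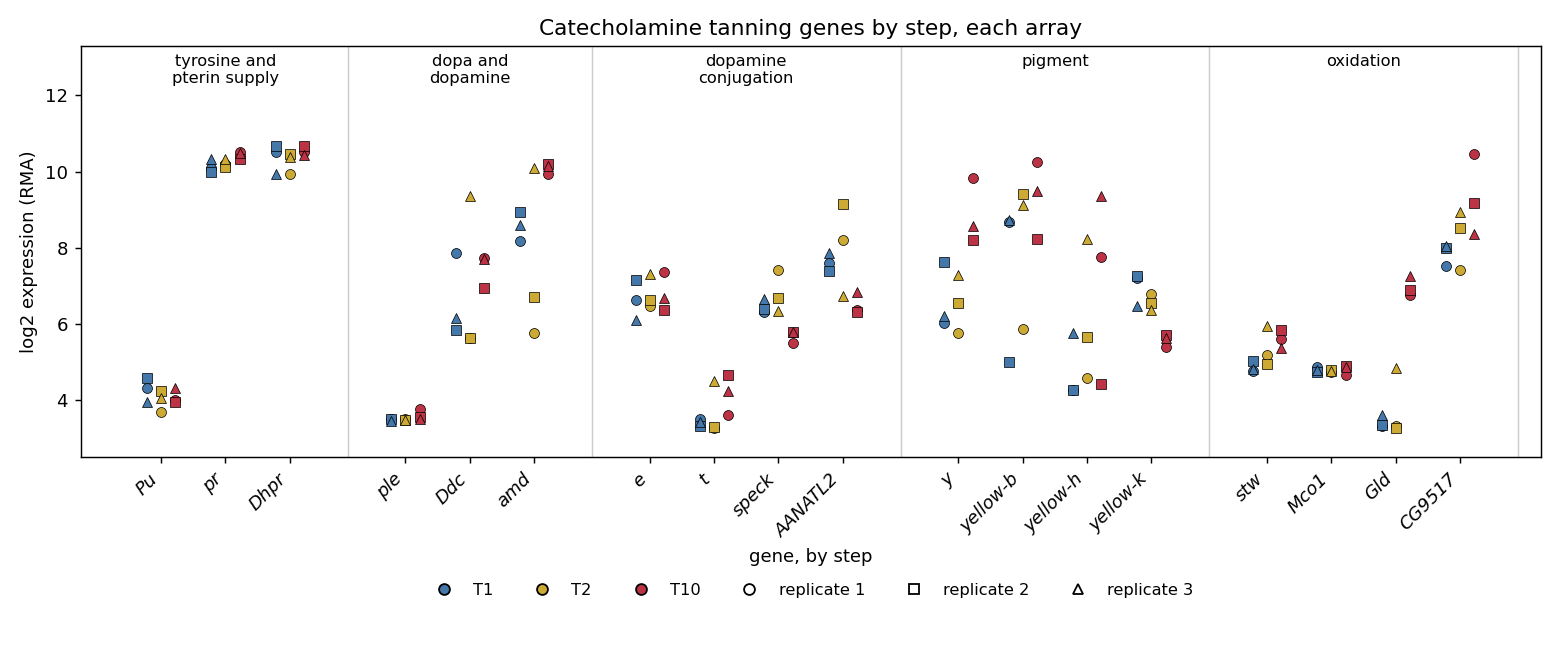
log2 expression (vertical axis) of tanning genes ordered by their step in the pathway (horizontal axis), with a point for each array colored by round. Levels of different genes are measured by different probes and are not compared. Within genes, T10 lies above T1 at amd and Gld, overlaps it at ple, and lies below it at speck and AANATL2.

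Most relatives of y and Gld did not pass. Of 12 measured yellow genes of 13 listed, only yellow-k passed, and it fell, from 7.2, 7.27 and 6.47 in T1 to 5.4, 5.71 and 5.63 in T10 (log2 difference -1.4, standard error 0.237, adjusted p = 0.0307). The median of the family was -0.147. Chosen after their values were seen, yellow-h read 9.35 in T10 replicate 3 but 4.42 in T10 replicate 2, and yellow-e read 9.27 in T1 replicate 3 and 9.88 in T2 replicate 2 but 5.08 in T10 replicate 2. Both varied by over 4 log2 units between arrays, and neither passed. Only 5 of 15 listed glucose dehydrogenase relatives had a named probe set, and none of the 5 passed. CG9517 was at a mean of 7.86 in T1 and 9.32 in T10 (log2 difference 1.47, adjusted p = 0.175), and CG9512 was at 5.29 and 4.85 (log2 difference -0.44, adjusted p = 0.195). CG9512 fell between T10 and T2 without T2 replicate 3 (log2 difference -2.0, adjusted p = 0.0047 from limma on 8 arrays).

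Among epidermal genes reported as targets of Grainyhead in flies, 3 of 7 measured, counting the grh paralog gem, rose and none fell. The chitin synthase gene kkv rose most, from 5.6, 4.89 and 7.0 in T1 to 10.91, 11.27 and 10.51 in T10 (log2 difference 5.07, standard error 0.545, adjusted p = 0.00896), with 5.03, 5.62 and 10.79 in T2. The claudin gene sinu (log2 difference 1.55, adjusted p = 0.0113) and the cadherin gene stan (2.96, adjusted p = 0.0215) also rose. E-cadherin transcripts (shg) did not pass (0.85, adjusted p = 0.0936), though all T10 arrays lay above all T1 arrays. The kinase gene msn, which has a wound enhancer, and the junction gene cora had log2 differences of 0.01 and 0.15 (adjusted p = 0.984 and 0.824). Transcripts of gem, the CP2 family paralog of grh, were at 9.43 to 10.28 in all arrays (log2 difference -0.16, adjusted p = 0.672). The median of this list was 0.847. Several of its genes were already known to differ in these arrays when the list was made, so it is no independent evidence of a direction.

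Of 7 genes of the cuticle envelope, crosslinking and surface lipids, only snu, which encodes an ABC transporter of the outermost cuticle layer, passed and rose. Its values were 5.59, 5.0 and 8.13 in T1 and 10.03, 10.54 and 10.28 in T10 (log2 difference 4.04, standard error 0.8, adjusted p = 0.0445), with 5.86, 7.85 and 10.37 in T2. As at grh and kkv, T1 replicate 3 was the highest T1 array. The hydrocarbon synthesis gene Cyp4g1 (log2 difference -0.06, adjusted p = 0.876) and resilin, which encodes an elastic cuticle protein (0.05, adjusted p = 0.936), did not pass.

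**Figure D3:**
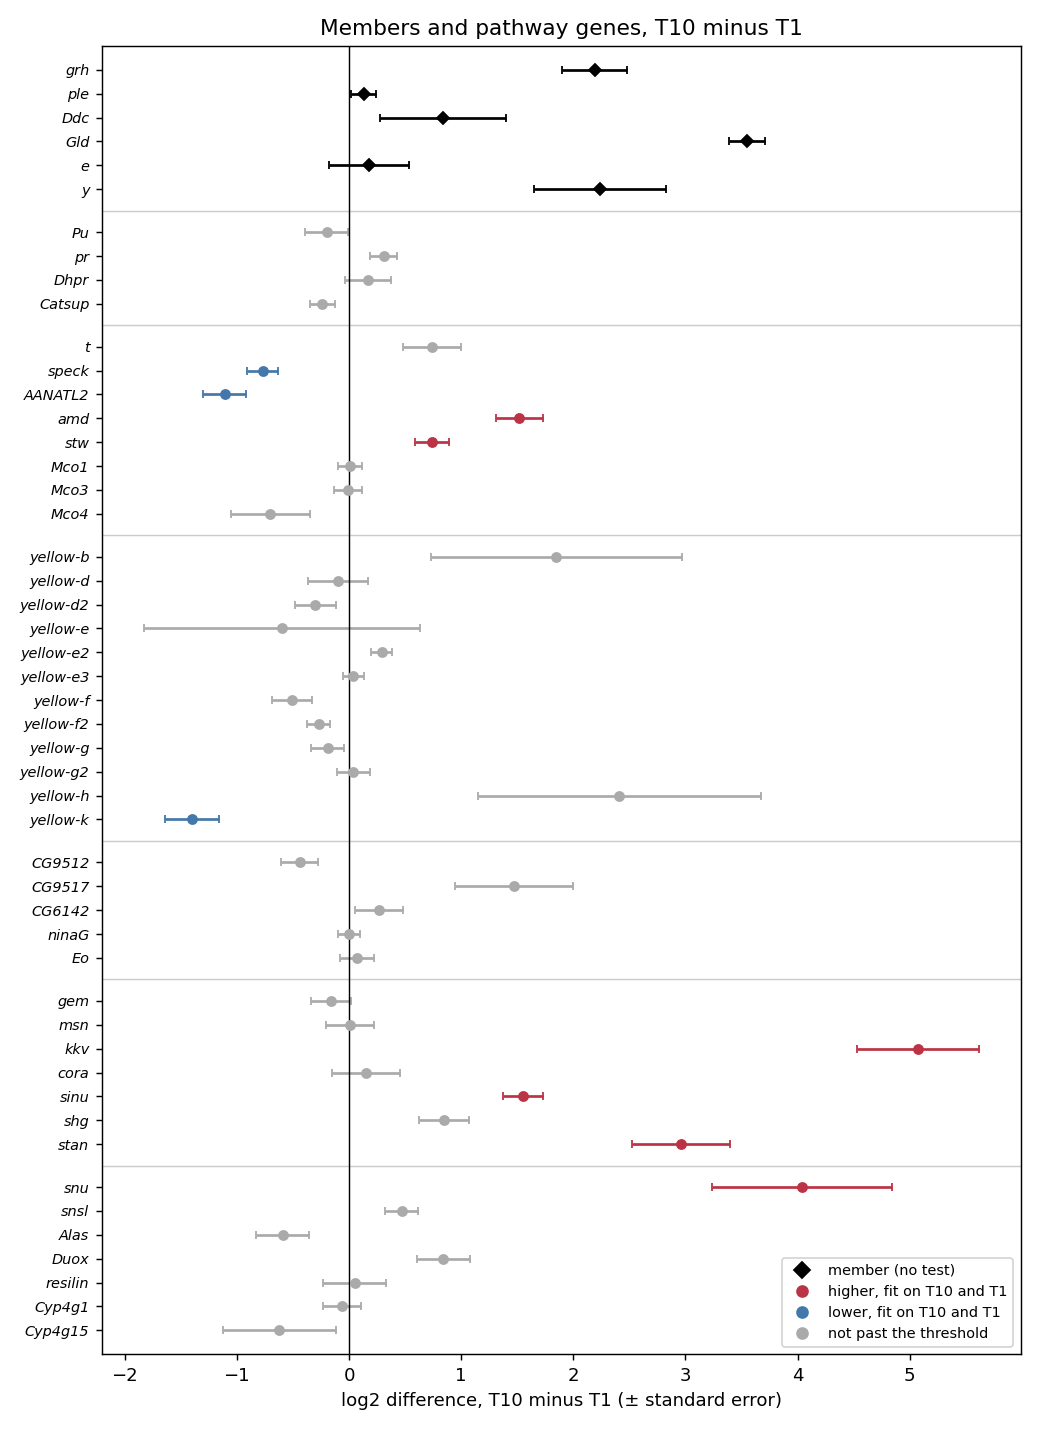
log2 difference of T10 minus T1 (horizontal axis, with the standard error from the fit on the 6 arrays of both rounds) for the 6 members and the 43 pathway genes in their lists (vertical axis). Red and blue points passed as higher or lower. grh is plotted at 1635106_at (2.19; its other probe set reads 4.73), Gld is at 3.55, kkv at 5.07 and snu at 4.04, and yellow-k (-1.4) and AANATL2 (-1.11) are the lowest that passed.

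The genes whose values followed each member most closely were sought among 3019 probe sets with 1 symbol and an SD of at least 0.5 over the 9 arrays. Likeness is Pearson's correlation over the 9 arrays, which fall into an early and a late set, so that a high value mostly says that a gene had the same 2 levels. For grh the 5 closest were ds (0.998), CG32655 (0.994), CG4455 (0.992), CG32447 (0.991) and ap (0.991). The cadherin gene ds read 4.51, 4.38 and 5.42 in T1 and had a mean of 9.98 in T10, and the wing selector gene ap read 4.51, 4.19 and 4.3 in T1 and had a mean of 10.46 in T10. Like grh, each of these genes was highest in T10 replicate 2, and T2 replicate 3 read 9.8 for ds and 10.25 for ap. For Gld the closest were sns (0.981), an adhesion gene of myoblast fusion and nephrocytes, frm (0.978) and Myo10A (0.97), all with T2 replicate 3 below the T10 arrays. For y they were CG13024 (0.952), the tricellular junction gene Gli (0.939) and CG14960 (0.935), all highest in T10 replicate 1. For Ddc they were the homeobox gene al (0.918), CG18558 (0.896) and CG12206 (0.88), and for e the taste receptor gene Gr8a (0.897), CG13561 (0.884) and CG2887 (0.879). The values of ple spread so little (SD 0.0982) that its closest genes, CG31103 (0.99), CG15800 (0.983) and twy (0.978), share with it mainly a high value in T10 replicate 1. Among the members themselves grh was closest to Gld (0.91), and e was least like grh (0.192).

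**Figure D4:**
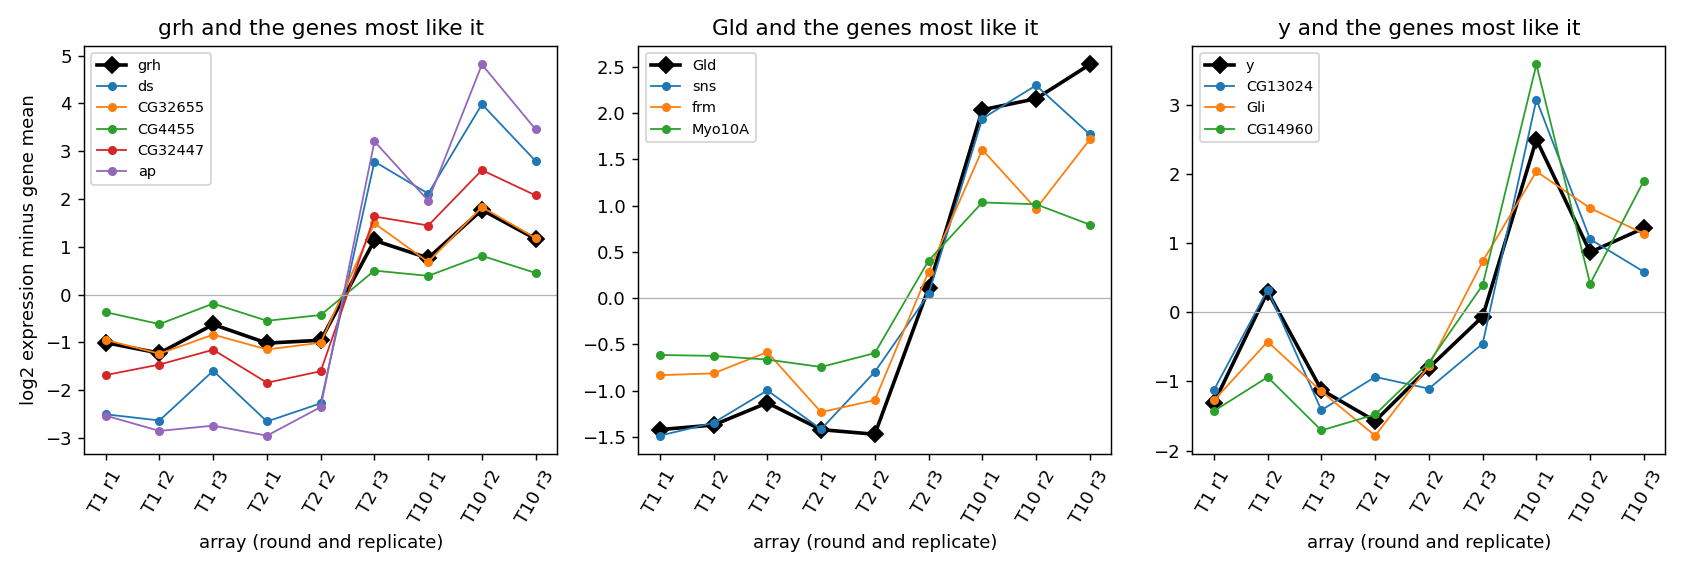
log2 expression of grh, Gld and y (black) and of the genes most like each, centered on each gene's mean (vertical axis), over the 9 arrays (horizontal axis). T2 replicate 3 lies with T10 in the grh panel (grh itself reads 7.23 there) and between the early and the T10 arrays in the Gld panel (4.84).

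Each array holds RNA from a piece of tissue, so fewer cells of a type and less RNA per cell cannot be told apart. Markers of gut cells and of other cell types that use these genes were read beside the members. Of 7 enteroendocrine markers Orcokinin fell (log2 difference -2.23, adjusted p = 0.046 from limma without T2) and 6 did not pass. Their mean was 4.51 to 4.95 in T1 and 4.27 to 4.31 in T10, and their part was not tested. None of 7 fat body or 6 muscle markers passed. The fat body mean was 7.68 in T2 replicate 2 and 5.57 to 6.11 in the other arrays, so that array stood apart there. Of 8 enterocyte markers the septate junction genes mesh, Tsp2A and Ssk fell between T10 and T1 (log2 difference -4.49, -2.81 and -1.66, adjusted p = 0.0219, 0.0407 and 0.0257 from limma without T2) and 5 did not pass. Among those 5, nub was higher in all T10 arrays than in T1 (1.55, adjusted p = 0.148) and Mal-A1 lower (-0.74, adjusted p = 0.0653). The others, betaTry, lambdaTry and Jon65Ai, were at 0.09, -0.07 and 0.07. The median log2 difference of the enterocyte list was -0.405. The enterocyte mean was 7.15 to 7.83 in T1, 6.45 to 6.57 in T10 and 6.43 in T2 replicate 3. It was thus lower where grh was higher, as was the progenitor mean, and the part of either cell type in the members' differences was not tested. Of 7 epidermal markers, ovo rose between T10 and T1 (log2 difference 3.44, adjusted p = 0.0238 from limma without T2), dyl did not pass (2.72, adjusted p = 0.0673), and the hair genes sha and mwh had log2 differences of -0.06 and 0.38. The mean of the list was 6.24 to 6.6 in T1, 7.17 to 7.45 in T10 and 7.19 in T2 replicate 3. Of 8 tracheal markers, pio, serp and verm rose and 5 did not pass. Among those 5, the tracheal receptor gene btl was lower in all T10 arrays than in T1 (log2 difference -1.51, adjusted p = 0.118). By contrast, vvl was higher in all T10 arrays (3.21, adjusted p = 0.115). The remaining dysf, kni and knrl were at -0.04, 0.17 and 0.22, and trh had no named probe set. The tracheal list had a mean of 5.78 to 6.62 in T1, 8.11 to 8.47 in T10 and 8.12 in T2 replicate 3. This higher mean came with pio, serp, verm and vvl. The median log2 difference of the tracheal list was 1.72. That of the epidermal list was 0.107, so its higher mean came with ovo and dyl, while sn was lower in T10 (-0.49, adjusted p = 0.314). The part of either cell type in the members' differences was not tested.

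Hemocyte markers had a mean of 5.19 to 5.38 in T1 and 5.48 to 6.14 in T10. Of these 9 markers crq rose and 8 did not pass. At Ppn and NimC1 every T10 array nonetheless exceeded every T1 array. Their log2 differences were 2.23 and 0.65 (adjusted p = 0.0973 and 0.197 from limma without T2). Pxn had a log2 difference of 0.86 with overlapping rounds, and only srp had a negative one (-0.26). The median log2 difference of the hemocyte list was 0.273. He and eater were at 3.21 to 3.55 and 4.22 to 4.88 in all arrays. The part of hemocytes in the members' differences was not tested. Crystal cells, blood cells that also use catecholamine oxidation, are marked by PPO1, PPO2 and lz. Of 5 such markers none passed, with PPO1 at 4.44 to 5.03 in all arrays. The mean of this list was 6.85 to 7.1 in T1 and 6.3 to 6.63 in T10. Its gene lz was at 3.47 to 3.59 in T1 and higher, at 3.84 to 4.39, in T10 (log2 difference 0.54, adjusted p = 0.124). The median log2 difference of the list was 0.08, and the lower mean came with peb (log2 difference -2.83, adjusted p = 0.0803). The part of crystal cells was not tested. Neurons that make dopamine or serotonin use ple and Ddc with the transporters DAT, SerT and Vmat. DAT was at 3.65 to 4.04 and SerT at 3.44 to 3.7 in all arrays. Other neuronal markers were brighter, with elav at 10.52 to 11.03 and para at 6.88 to 7.46 in all arrays. At nSyb all T10 arrays lay below all T1 arrays (log2 difference -0.72, adjusted p = 0.0752 from limma without T2). Over 7 neuronal markers none passed and the mean was 6.23 to 6.5 in T1 and 6.14 to 6.2 in T10. The part of neurons was not tested. Gld is also used by the spermatheca of the female host, whose secretory genes Send1 and Send2 were at 5.43 to 6.12 and 4.69 to 5.03 in all arrays. None of 4 spermathecal markers passed, and their mean was 5.88 to 6.0 in T1 and 6.11 to 6.29 in T10.

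**Figure D5:**
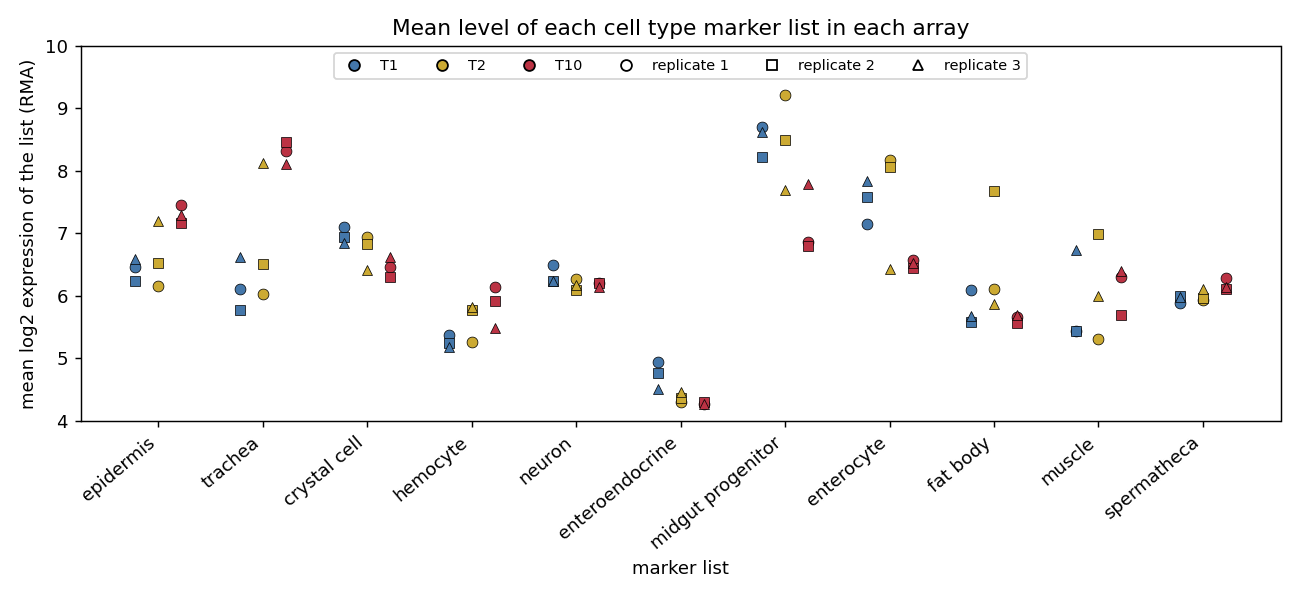
Mean log2 expression of each of 11 marker lists (vertical axis) in each array, colored by round, for the cell types on the horizontal axis. The epidermal and tracheal lists are higher in T10 (7.17 to 7.45 and 8.11 to 8.47) than in T1 (6.24 to 6.6 and 5.78 to 6.62), and T2 replicate 3 (triangle) lies at the T10 level in both.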

How the data were processed

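The 9 single-color arrays, 3 for each of rounds T1, T2 and T10, were grouped by the round in the sample labels. The authors amplified cDNA before hybridization. The deposited values are log2 expression that the authors obtained by RMA with the affy and affyPLM packages, whose versions the sources used here do not give. Of 18952 probe sets, the 183 controls were removed. The remaining 18769 were modeled with no further scaling and no covariate, using lmFit and eBayes of limma 3.58.1 under R 4.3.3. P-values were adjusted by Benjamini-Hochberg over all probe sets, with a threshold of 0.05. The model was run on all 9 arrays and on T10 and T1 only. The fit on 9 arrays was also checked on simulated data with independent noise. Those data held no array like T2 replicate 3, so the check does not bear on the effect of that array. The platform annotation gave 1 symbol to 13647 probe sets, several to 402 and none to 4720, and genes were named only from the first kind. Older symbols were matched through RefSeq. A gene with several probe sets is given at the one with the highest mean, except grh, given at both. Members and lists were chosen with earlier results of these data known. Of each list, up to 4 genes past the threshold for T10 and T1 without T2, or else the 2 with the smallest p, were named, with the 5 genes most like grh and 3 for each other member. Further list and marker genes were named after their values were seen. Alternatives changed the arrays used, blocking by replicate number, moderation, array weighting, scaling, a filter on dim probe sets, a floor, the choice of probe set and the arrays left out. The number of arrays limits the precision.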

Additional observations from a re-analysis of the deposited data

How the results depend on the processing

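The counts of calls depended on the arrays in the fit. For T10 against T1, pathway genes past the threshold went from 0 to 6 higher and 3 lower when T2 was not used, and to 5 higher and 2 lower with array weights. Leaving out arrays or replicate numbers gave 0 to 6 higher and 0 to 2 lower. The highest count, 6, came without T2 replicate 3 (with 1 lower) or without replicate 3 of every round, and without T1 replicate 3 there were 1 higher and 2 lower. For T10 against T2, array weights gave 4 higher and 4 lower, and leaving out arrays 0 to 5 higher and 0 to 4 lower. For T2 against T1 leaving out arrays gave 0 to 1 higher, with yellow-e2 without T2 replicate 1, and 0 lower. Members past the threshold between T10 and T1 went from 0, where 0.0107% of all probe sets passed, to 2 when T2 was not used. In that fit 2.98% of all probe sets were higher and 2.99% lower. For the other settings no share over all probe sets was taken, so member counts are not given.

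The log2 differences between T10 and T1 moved by more than the spread between replicates in 4 cases: grh at its probe set with the largest spread (4.73), ple (0.0) and Gld (2.97) with the floor, and y without replicate 2 of every round (3.08). When arrays were left out they were 1.78 to 2.42 for grh, 0.05 to 0.19 for ple, 0.44 to 1.46 for Ddc, 3.41 to 3.65 for Gld, -0.1 to 0.66 for e and 1.46 to 3.08 for y. The filter on dim probe sets gave ple no value. With the replicate number as a block the log2 difference of grh stayed at 2.19 (standard error 0.509), and 0 pathway genes passed, as without the block. Deviations of same-numbered arrays from their round means correlated at -0.284 to 0.188. Between T10 and T1 the correlations were -0.0137, 0.122 and 0.188 for replicates 1, 2 and 3. T2 replicate 3 enters the T2 mean, so this check cannot show that the numbers carry no pairing. The main fit did not take the numbers as pairs.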
